A study of Caenorhabditis elegans with 10 samples.

Results

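The neuropeptide genes of C. elegans named flp (FMRFamide-like peptides) and nlp (neuropeptide-like proteins) were examined for binding by CEH-60, UNC-62 and PQM-1. The members are the protein-coding genes whose symbol in the gene table of the assembly WBcel235 starts with flp- or nlp-. There are 109 of them among 19971 protein-coding genes of the nuclear chromosomes, 31 flp and 78 nlp genes. Each gene encodes a precursor that proprotein convertases cut at basic residues. Carboxypeptidases and an amidating enzyme then trim the products into short peptides, which are released from dense-core vesicles and act mostly on G protein-coupled receptors. Most of these peptides are made by neurons. A few come from other tissues, such as NLP-40, which the intestine releases to time the defecation cycle, and the antimicrobial peptides of the nlp-29 cluster, which the epidermis makes after infection or wounding. CEH-60 (PBX family) and UNC-62 (MEIS family) are homeodomain partners, and PQM-1 is a zinc finger factor. CEH-60 and PQM-1 are best known for their work in the adult intestine.

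Chromatin immunoprecipitation followed by sequencing was made from whole animals at day 1 of adulthood, so a peak does not tell in which tissue a site was bound. CEH-60 was pulled down with anti-HA antibodies from DLS395, of genotype ceh-60(rhd116), with 3F10 in replicates 1 and 2 and with mIgG1 in 1 further library. It was also pulled down with 3F10 from DLS396, of genotype ceh-60(rhd116); gaIs285, and from DLS435, of genotype pqm-1(ok485); ceh-60(rhd116). UNC-62 (isoform 7a) was pulled down with anti-GFP (clone 3E6) from DLS396, where it is carried by the transgene gaIs285. PQM-1 was pulled down with anti-FLAG (M2) through the transgene wgIs201, from OP201, of genotype unc-119(tm4063); wgIs201, and from DLS422, of genotype ceh-60(ok1485); wgIs201. CEH-60 replicate 1, mIgG1 and both DLS396 libraries were crosslinked with 2% formaldehyde over 30 min, and the other 4 with 1% over 5 min, with different shearing and library kits. The 2 input samples and any untagged control were not analysed here.

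The 8 lists held 2048 to 9010 peaks, and read depth is unknown. The fold of a peak is the authors' own enrichment at its summit over the local background, and it is used here only to rank peaks within a list. Bound genes are those with a summit in a window that reaches 1000 bp outward and 200 bp inward from either end of the gene. Gene strand was not used here, so the promoter side is not told apart from the other end. All groups except CEH-60 in DLS395 with 3F10 hold 1 library, and its 2 replicates differ in protocol. No test between groups was therefore made, and no p-value is given.

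Few neuropeptide genes were bound by any of the 3 factors, and most had no peak at their ends in any list. In CEH-60 replicate 1, 10 of 109 members were bound, which is 9.17% (Wilson 95% interval 5.06 to 16.1%), where 25.2% of all protein-coding genes were. CEH-60 in DLS396 also bound 10 members (9.17%), against 25.5% of all genes. With mIgG1 the members numbered 5 (4.59%, 1.98 to 10.3%), against 12.8%. UNC-62 bound 3 (2.75%, 0.940 to 7.78%), against 6.18%. The members' share was thus below that of all genes in each of these 4 lists made with long crosslinking.

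The lists made with short crosslinking had the same order. CEH-60 replicate 2 bound 3 members (2.75%), against 9.66% of all genes, and CEH-60 in DLS435, the strain with pqm-1(ok485), bound 2 (1.83%), against 5.44%. PQM-1 in OP201 bound 5 (4.59%), against 16.9%, and PQM-1 in DLS422, the strain with ceh-60(ok1485), bound 5 (4.59%), against 13.4%. In at least 1 of the 8 lists, 14 members (12.8%) were bound, where 29.8% of all genes were, and 95 members were bound in none. In all 8 lists, 2 members (1.83%) were bound, where 3.01% of all genes were. For UNC-62 and DLS435 (upper limit 6.44%), and for all 8 lists together, the share of all genes lay inside the interval of the members, so no difference was detectable at these counts. The intervals cover counting error over genes only, and the lists share many sites, so the lists are not separate measurements. The intervals also take the genes as independent, although some members lie side by side, such as nlp-45, nlp-22 and nlp-23. The counts depend on the window: reaching 2000 bp outward gave 20 members (18.3%) in CEH-60 replicate 1, against 34.5% of all genes. The members' share was below that of all genes in each of 56 combinations of list and setting tried. Those combinations reuse the same peaks, so they are not separate measurements.

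**Figure D1:**
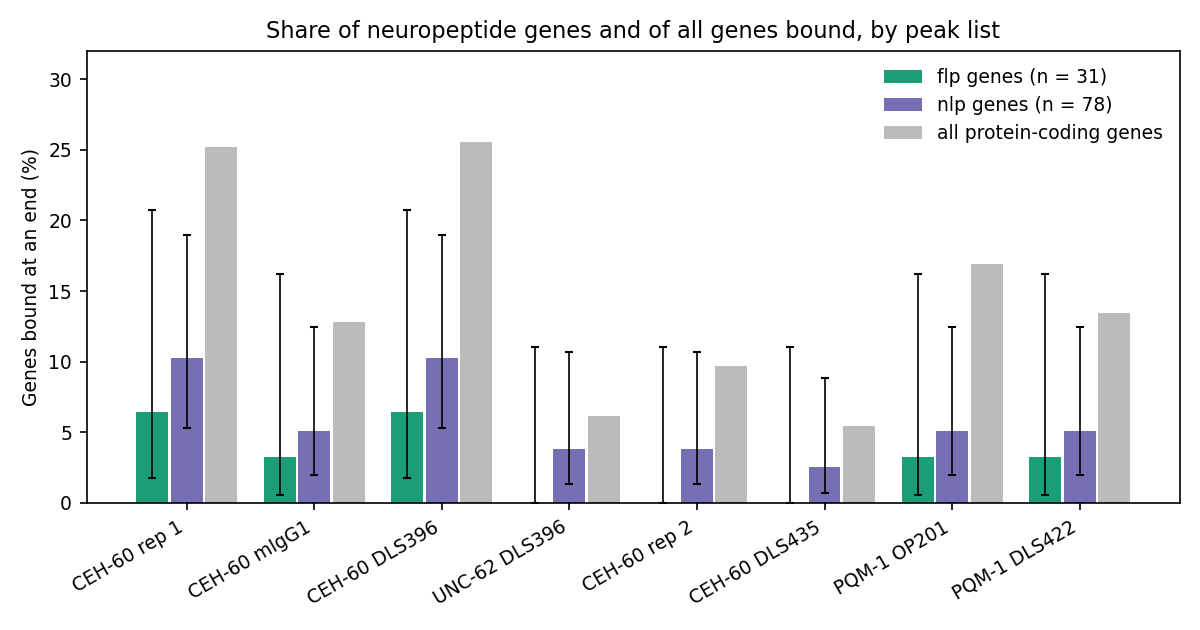
Percent of flp genes, nlp genes and all protein-coding genes with a summit at a gene end, in each of the 8 peak lists; lines are Wilson 95% intervals for counting error. Both families stand below all genes in every list, with 0 flp genes bound for UNC-62, CEH-60 replicate 2 and CEH-60 in DLS435. In those lists the share of all genes lies inside the intervals of both families. With mIgG1 and in DLS422 it lies inside the flp interval alone. No difference was detectable there at these counts.

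The share of bound genes was lower among the flp genes than among the nlp genes, on small counts. In CEH-60 replicate 1, 2 of 31 flp genes (6.45%, 1.79 to 20.7%) and 8 of 78 nlp genes (10.3%, 5.29 to 19%) were bound. Of all genes 25.2% were bound there. Over all lists, 3 flp genes (9.68%) and 11 nlp genes (14.1%) were bound at least once, where 29.8% of all genes were. UNC-62, CEH-60 replicate 2 and CEH-60 in DLS435 bound 0 of 31 flp genes, with an upper Wilson limit of 11%. The shares of all genes there, 6.18%, 9.66% and 5.44%, lie below that limit, so no difference was detectable. The intervals of both families overlap, so the families were not told apart at these counts.

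Neuropeptide genes lie in more open surroundings than most genes, and many are on the X chromosome. The summed distance to both neighbouring protein-coding genes had a median of 4440 bp for the members and 2197 bp for all genes. The fifth of genes with the widest spacing holds 44 members. Of these, CEH-60 replicate 1 bound 5, where 23.5% of all genes of that spacing were bound, and PQM-1 in OP201 bound 2, where 16.1% were. On the X chromosome lie 35 members, 32.1% of the 109, against 13.7% of all genes. CEH-60 replicate 1 bound 3 of these 35 members, where 35.8% of all X-linked genes were bound, and PQM-1 in OP201 bound 3, where 23.2% were.

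The 14 bound members fall into a few sites that recur across lists and a longer set of weak ones. Of the 14, 5 are on the X chromosome, which holds 32.1% of all members. nlp-1 and nlp-57 were bound in 8 of 8 lists, nlp-40 in 5, nlp-89 in 4, and flp-16 and flp-34 in 3. nlp-4, nlp-19, nlp-62 and nlp-68 were bound in 2 lists, and flp-6, nlp-24, nlp-45 and nlp-53 in 1. For 8 of the 14, the strongest peak also lay at the end of another protein-coding gene in at least 1 list. For 6 of the 14 (flp-34, nlp-1, nlp-19, nlp-45, nlp-68 and nlp-89), that peak was nearer to another gene, or inside it, in every list. The same share over all bound genes was not computed. With each summit given to its nearest gene alone, CEH-60 replicate 1 bound 6 members in place of 10 (5.50%, from 9.17%). The share of all genes then also fell, from 25.2% to 17.3%. In CEH-60 replicate 1, 6 of 10 bound members shared their strongest peak with another gene, and 54.0% of all bound genes did. By fold, the strongest peaks of the bound members had a median percentile of 51.5% in CEH-60 replicate 1, where those of all bound genes had 55.0%. For PQM-1 in OP201 it was 69.6%, where those of all bound genes had 61.2%. The members' median was the higher one in OP201 and with mIgG1 (61.2% against 51.2%), and the lower one in every other list. These medians rest on 2 to 10 bound members a list.

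**Figure D2:**
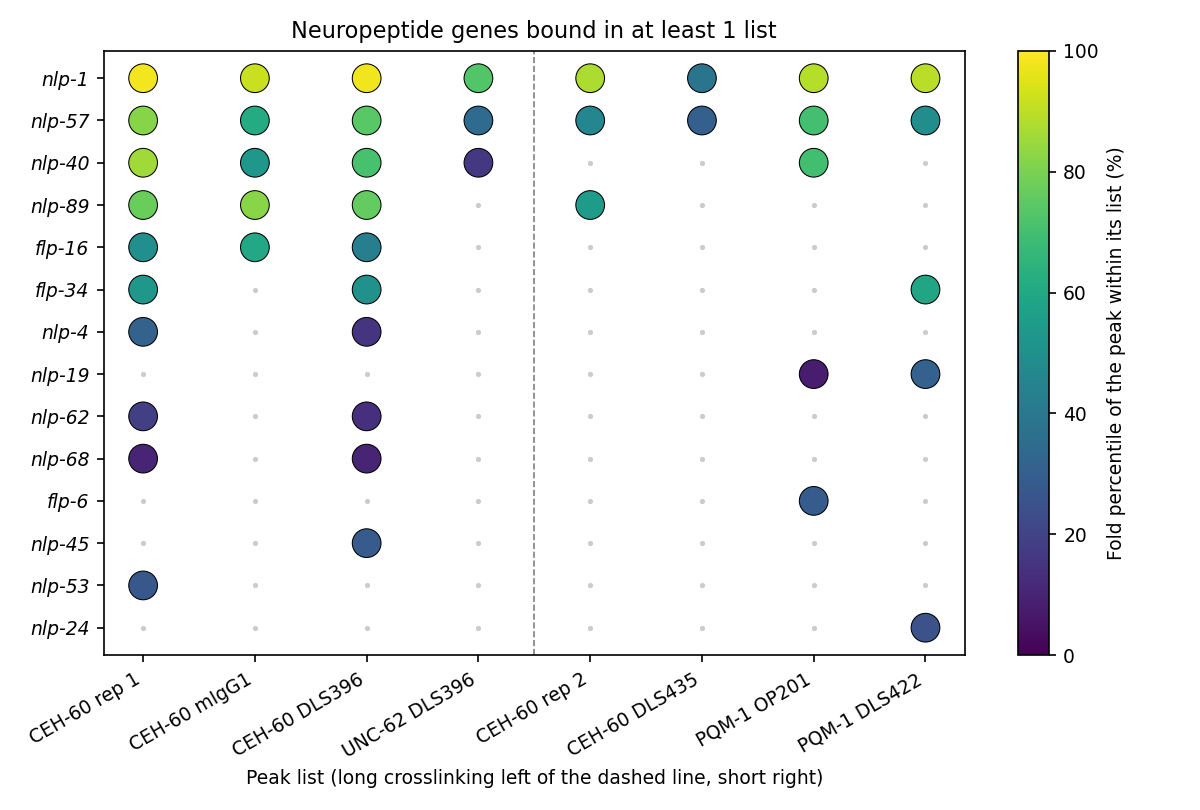
The 14 flp and nlp genes bound in at least 1 list (rows) by peak list (columns); a filled circle marks a bound gene and its colour the percentile of its strongest peak by the authors' fold within that list. nlp-1 and nlp-57 are filled in all 8 columns, nlp-40 in 5 and nlp-89 in 4, and the other rows hold 1 to 3 circles.

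nlp-1, whose peptides the AWC olfactory neurons release to tune odour responses, had the strongest peak of any member in each of the 8 lists. Its CEH-60 folds were 14.9 in replicate 1, 21.9 in DLS396 and 9.25 with mIgG1, and its UNC-62 fold was 5.37. In the short-crosslink lists they were 3.12 in CEH-60 replicate 2, 2.18 in DLS435, 3.35 for PQM-1 in OP201 and 3.22 for PQM-1 in DLS422. Within their own lists the nlp-1 peaks stood at fold percentiles of 73.0 to 98.2% in 7 lists and at 38.5% in DLS435. The peak ranked 166 of 9008 nuclear peaks in CEH-60 replicate 1 and 1257 of 2048 in DLS435.

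The nlp-1 site lies between nlp-1 and aex-4, which encodes a SNAP25-like membrane fusion protein that acts in the intestine in the defecation cycle. The peak of CEH-60 replicate 1 spanned X 3728914 to 3729697. Across the 8 lists its summit lay 696 to 825 bp from the end of nlp-1 and 10 to 139 bp from the end of aex-4, so it was nearer to aex-4 in every list. The summits of the 5 CEH-60 lists lay 10 to 80 bp from aex-4, that of UNC-62 lay 47 bp away, and those of PQM-1 lay 138 and 139 bp away. A further, weaker PQM-1 peak of DLS422, at X 3728320 to 3728543 (1.91-fold, rank 4537 of 5020), had its summit 7 bp from the end of nlp-1 itself.

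nlp-57 was likewise bound in every list, from the short stretch that separates it from hizr-1, a zinc-sensing nuclear receptor gene of the intestine. Its folds were 8.08 in CEH-60 replicate 1 (X 11317799 to 11318709), 4.91 with mIgG1, 9.30 in DLS396 and 3.83 for UNC-62. In the short-crosslink lists they were 2.29 in CEH-60 replicate 2, 2.09 in DLS435, 2.74 for PQM-1 in OP201 and 2.32 in DLS422. By fold percentile these peaks stood lower in their lists than those of nlp-1, between 30.0% in DLS435 and 81.8% in CEH-60 replicate 1. Outside DLS435 the summits lay 44 to 123 bp from nlp-57 and 100 to 179 bp from hizr-1. In DLS435 there were 2 separate peaks, with summits 19 bp outside nlp-57 and 179 bp inside hizr-1.

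nlp-40 encodes the peptides by which the intestine triggers the expulsion step of defecation. It was bound in all 4 long-crosslink lists and by PQM-1 in OP201. Its folds were 8.86 in CEH-60 replicate 1 (I 10993 to 11756, rank 1298 of 9008), 4.45 with mIgG1, 8.72 in DLS396, 3.35 for UNC-62 and 2.72 for PQM-1 in OP201. These peaks ranked 2090 of 4429 with mIgG1, 2615 of 8991 in DLS396 and 1826 of 6001 in OP201. The UNC-62 peak was weak within its list, at rank 1718 of 2051 (fold percentile 16.3%). The 5 summits lay within 86 bp of each other, 172 to 258 bp outside the gene, and at no other protein-coding gene's end. CEH-60 replicate 2, CEH-60 in DLS435 and PQM-1 in DLS422 had no peak over that site. Their nearest summits lay 24784, 24815 and 25205 bp away.

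nlp-40 also held peaks inside the gene. CEH-60 replicate 1 had 2 there, at I 15246 to 15569 (4.89-fold) and I 15930 to 16246 (7.18-fold), and DLS396 had 2 at the same places (5.38 and 9.42). With mIgG1 there was 1 (I 15972 to 16192, 5.39-fold), and for PQM-1 in OP201 there was 1 (I 15305 to 15521, 2.35-fold). No summit lay inside nlp-40 in the other 4 lists. At the other end of the gene, DLS396 had 1 weak peak (I 16882 to 17094, 2.97-fold, rank 8412 of 8991), which also lies at the end of rcor-1.

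**Figure D3:**
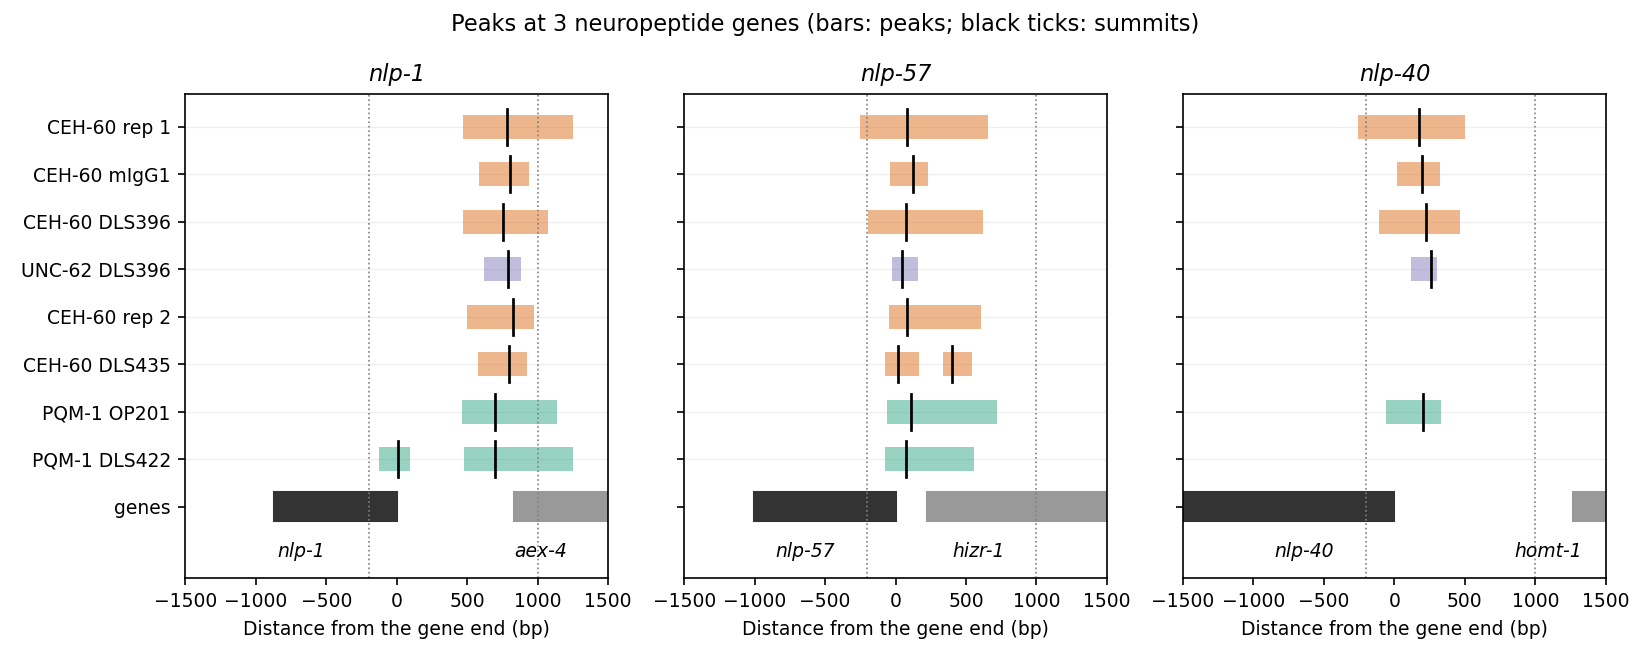
Peaks (bars) and summits (black ticks) of each list around nlp-1, nlp-57 and nlp-40, as distance in bp outward from the gene end nearest the peaks; dark boxes are the member gene, grey boxes its neighbour, and dotted lines bound the window from 200 bp inward to 1000 bp outward. The summits at nlp-1 line up at the end of aex-4 in all 8 lists, those at nlp-57 lie in the stretch before hizr-1 or, in DLS435, on both sides of its end, and the site at nlp-40 is empty in the lists of CEH-60 replicate 2, DLS435 and DLS422.

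The members nlp-89 and flp-16 were bound in CEH-60 lists and by neither UNC-62 nor PQM-1. nlp-89 was bound in CEH-60 replicate 1 (7.33-fold, IV 4110920 to 4111455), with mIgG1 (6.90), in DLS396 (9.71) and in CEH-60 replicate 2 (2.40), with summits 29 bp apart at most. These summits lay 640 to 669 bp outside nlp-89 and inside its neighbour F49F1.14. flp-16, an FMRFamide-like peptide gene, was bound in CEH-60 replicate 1 (4.51, II 13235054 to 13235340), with mIgG1 (4.83) and in DLS396 (5.12), with summits 82 to 93 bp outside the gene and within 11 bp of each other. No summit of the other 5 lists lay within 15 kb of that site: the nearest was 15275 bp away, in DLS422.

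flp-34, a neuropeptide Y-like gene whose peptides act in olfactory learning, was bound in CEH-60 replicate 1 (4.77, V 1027196 to 1027469), CEH-60 in DLS396 (5.81) and PQM-1 in DLS422 (2.46). The 3 summits lay within 42 bp, 535 to 577 bp outside flp-34 and 240 to 282 bp outside R09A1.3. PQM-1 in OP201 had no peak there, and its nearest summit lay 33070 bp away. A peak of PQM-1 at this site was thus listed in the strain with ceh-60(ok1485) and not in OP201.

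The remaining CEH-60 sites were weak within their lists. nlp-4 (3.49-fold in replicate 1 and 3.43 in DLS396), nlp-62 (2.97 and 3.38) and nlp-68 (2.67 and 3.17) were bound in the same 2 lists, at fold percentiles of 9.90 to 31.5%. The nlp-68 summits lay 55 to 73 bp from hpd-1, a gene of tyrosine breakdown, and 325 to 343 bp from nlp-68. nlp-53 was bound in replicate 1 alone (3.29), and nlp-45, whose peptides restrain exploratory behaviour, in DLS396 alone (4.12), inside the neighbouring gene T01B6.1.

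The members nlp-19, flp-6 and nlp-24 were bound in PQM-1 lists alone, at fold percentiles of 8.14 to 30.6%. nlp-19 was bound in OP201 (1.88-fold, X 10958012 to 10958247) and DLS422 (2.14, X 10958162 to 10958338), with summits 186 bp apart. The summit of OP201 lay inside pbo-4 and that of DLS422 lay 12 bp outside it. pbo-4 encodes an intestinal sodium and proton exchanger of the defecation cycle. flp-6, an FMRFamide-like peptide gene, was bound in OP201 alone (2.12, V 9474665 to 9474839). nlp-24, an opioid-like peptide gene, was bound in DLS422 alone (2.09, V 11615856 to 11616036).

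Pairs of lists show how far the bound members agreed. The 5 members bound with mIgG1 were all among the 10 of replicate 1, and over all genes 96.4% of those bound with mIgG1 were bound in replicate 1. Replicate 1 and DLS396 shared 9 of 10 members each way, and differed by nlp-53 and nlp-45. Over all genes, 91.6% of those bound in replicate 1 were bound in DLS396, and 90.4% the other way. The 3 UNC-62 members (nlp-1, nlp-40 and nlp-57) were 3 of the 10 that CEH-60 bound in the same strain. Over all genes, UNC-62 bound 23.4% of those that CEH-60 bound, and CEH-60 bound 96.6% of those that UNC-62 bound. The 3 members of CEH-60 replicate 2 (nlp-1, nlp-57 and nlp-89) were all among the 10 of replicate 1, as were 96.0% of all genes bound in replicate 2.

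In the pqm-1(ok485) strain, CEH-60 bound 2 of the 3 members of replicate 2, and over all genes 53.3% of those bound in replicate 2 were bound in DLS435. nlp-89 was the member without a peak in DLS435, whose nearest summit lay 6665 bp away. PQM-1 in OP201 and in DLS422 shared 3 of 5 members each way (nlp-1, nlp-19 and nlp-57). Over all genes, 71.3% of those bound in OP201 were bound in DLS422, and 89.8% of those bound in DLS422 were bound in OP201. nlp-40 and flp-6 were bound in OP201 alone, and flp-34 and nlp-24 in DLS422 alone. With 1 library a strain, these differences have no replicate check.

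Several members lay just beyond the window. The bound summit farthest out was that of flp-6, 928 bp from its end. nlp-36 was missed by 3 bp for PQM-1 in OP201, with a summit 1003 bp out, and its summits lay 1065 bp out in CEH-60 replicate 1, 1090 bp in DLS422 and 1096 bp in DLS396. flp-5 had CEH-60 summits 1075 to 1090 bp out in DLS396, mIgG1 and replicate 1. nlp-24 had summits 1391 to 1425 bp out in 5 lists, of CEH-60 replicates 1 and 2, DLS396, DLS435 and PQM-1 in OP201. nlp-19 had summits 1227 to 1309 bp out in all 5 CEH-60 lists and the UNC-62 list. That summit belonged to a strong peak of CEH-60 replicate 1 (14.2-fold, X 10956862 to 10957835) on the pbo-4 side.

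On the inner side, nlp-9 had summits 228 to 233 bp inside the gene in CEH-60 replicate 1 (5.61-fold, V 4221860 to 4222173), with mIgG1 (4.91) and in DLS396 (5.60). flp-10, one of the peptide genes that inhibit egg laying, had summits 518 to 541 bp inside the gene in the same 3 lists, with folds of 7.60 (IV 7869231 to 7869667), 8.51 and 9.20. The flp-10 peak ranked 452 of 4429 with mIgG1. These 2 genes are not counted as bound, and no summit of UNC-62, PQM-1 or the short-crosslink CEH-60 lists lay inside them.

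By median distance, the members lay farther from the nearest summit than genes did in general in 7 of the 8 lists. A summit anywhere inside a gene counted as no distance, which favours long genes. The members were shorter, with a median length of 1018 bp against 2006 bp for all genes. In CEH-60 replicate 1, 4.59% of the members had a summit inside, against 13.8% of all genes. How much of the difference in distance goes with gene length was not tested. The median distance from a member to the nearest summit was 7050 bp in CEH-60 replicate 1, against 3531 bp for all genes, and 14099 bp for PQM-1 in OP201, against 8102 bp. In CEH-60 replicate 2 the medians were 15924 and 14279 bp, and for UNC-62 they were 24241 and 22876 bp. In DLS435 the order was the other way, at 23801 and 27789 bp. A summit of at least 1 list lay within 10000 bp of 76 members (69.7%), where 79.0% of all genes had one. The 33 members without one were 6 flp and 27 nlp genes.

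**Figure D4:**
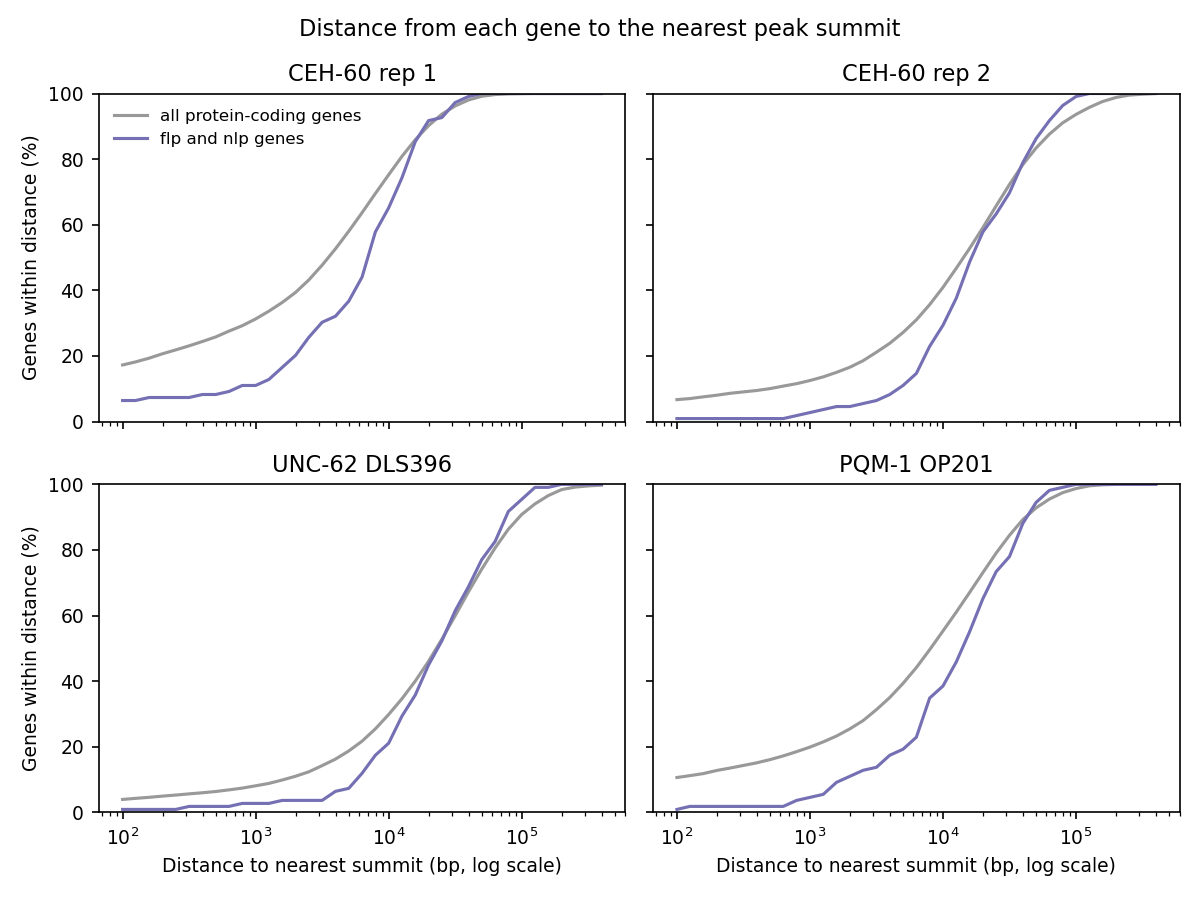
Cumulative percent of genes by distance in bp (log scale) from the gene to the nearest peak summit, for flp and nlp genes and for all protein-coding genes, in 4 of the lists. A summit inside a gene counts as no distance, and gene length is not matched. The curve of the neuropeptide genes runs below that of all genes at short distances in each panel, and reaches or passes it from 50118 bp on.

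Some peptide genes with well-known neural roles had no peak at their ends in any list, while others, such as nlp-1 and flp-34, were bound. nlp-24 and nlp-40, of the same fixed set of named genes, were also bound. In at least 1 list, 12.8% of the members and 29.8% of all genes were bound. The single distances below are not set against those of all genes, 79.0% of which had a summit within 10000 bp in at least 1 list. flp-1, which shapes locomotion, had its nearest summit of any list 13105 bp away. flp-7, whose peptide carries a signal from neurons to the gut that drives fat loss, had its nearest 16151 bp away in CEH-60 replicate 1 and 38831 bp or more away in the other 7 lists. flp-11, flp-13 and nlp-22, which promote sleep, had their nearest summits of any list 3130, 7389 and 2380 bp away. For flp-18 and flp-21, which encode ligands of the receptor NPR-1, those distances were 4594 and 6482 bp, and for nlp-12, a cholecystokinin-like gene of the stretch-sensing neuron DVA, it was 6541 bp. nlp-3, which promotes egg laying, lay 11956 bp from its nearest. flp-2, which the intestine also releases under oxidative stress, lay 10229 bp from its nearest.

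The epidermal antimicrobial genes of the nlp-29 cluster were not bound in any list, 0 of 6, where 29.8% of all genes were bound in at least 1. nlp-29 itself lay 13825 bp from the nearest summit of CEH-60 replicate 1 and 33591 bp from that of PQM-1 in OP201. Of the 6, nlp-34 lay nearest to a summit of CEH-60 replicate 1, at 8225 bp. The 6 genes lie side by side, so they are not independent loci. The caenacins, a related family of epidermal antimicrobial peptides, had 2 of 11 genes bound in CEH-60 replicate 1 (18.2%, against 25.2% of all genes), cnc-1 and cnc-5, which share 1 peak (6.71-fold).

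Other genes of peptide signalling were counted in the same way. Of 14 genes of peptide processing and release, CEH-60 replicate 1 bound 5, where 25.2% of all genes were bound. They were the convertase genes aex-5 (5.78-fold) and bli-4 (3.53), the carboxypeptidase genes egl-21 (3.73) and cpd-1 (4.65), and pamn-1 (3.50), of the amidating enzyme. The convertase gene egl-3, the main processing enzyme of neurons, was not bound in any list. UNC-62 bound 1 of the 14 (cpd-1, 7.14%), where 6.18% of all genes were bound. PQM-1 in OP201 bound 1 (egl-21, 7.14%), against 16.9% of all genes, and CEH-60 replicate 2 bound 0, against 9.66%.

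Of 107 peptide receptor genes, CEH-60 replicate 1 bound 18 (16.8%), against 25.2% of all genes, and PQM-1 in OP201 bound 12 (11.2%), against 16.9%. UNC-62 bound 8 (7.48%), near the 6.18% of all genes, and no interval was computed for these counts. frpr-5, fshr-1, gnrr-1 and tkr-1 were bound in all 8 lists, which is 4 of 107 (3.74%), where 3.01% of all genes were. fshr-1, a glycoprotein hormone receptor gene that acts in intestinal immunity, had folds of 10.6 in CEH-60 replicate 1, 4.86 for UNC-62 and 3.26 for PQM-1 in OP201. frpr-5, of the FMRFamide receptor family, had 12.9, 4.35 and 4.01, and tkr-1, a tachykinin receptor gene, had 8.59, 4.38 and 2.36. aex-2, whose product is the receptor of NLP-40, was not bound in any list. Neprilysins, which degrade peptides, were bound in 4 of 23 cases (17.4%) in replicate 1, against 25.2% of all genes, led by nep-22 (10.1-fold).

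Insulin-like peptide genes, the other large family of peptide hormones, had 10 of 39 bound in CEH-60 replicate 1 (25.6%), where 25.2% of all genes were, and 8 for PQM-1 in OP201 (20.5%), where 16.9% were. The 7 peptide genes of other names, among them pdf-1, ntc-1 and snet-1, had 0 bound in every list, where 29.8% of all genes were bound in at least 1. For the marker lists the shares of all genes are again 25.2% in replicate 1, 6.18% for UNC-62 and 16.9% in OP201. Markers of neurons had 2 of 16 bound in replicate 1 (snb-1, 2.44-fold, and tph-1, 3.29; 12.5%), 0 for UNC-62 and 1 (tph-1, 6.25%) in OP201. Markers of the epidermis had 1 of 7 bound in replicate 1 (elt-3, 14.3%). Markers of the intestine had 10 of 11 bound in replicate 1 (90.9%), 6 for UNC-62 (54.5%) and 9 in OP201 (81.8%). These gene lists were chosen with earlier results of these data known, and no test was made of them.

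**Figure D5:**
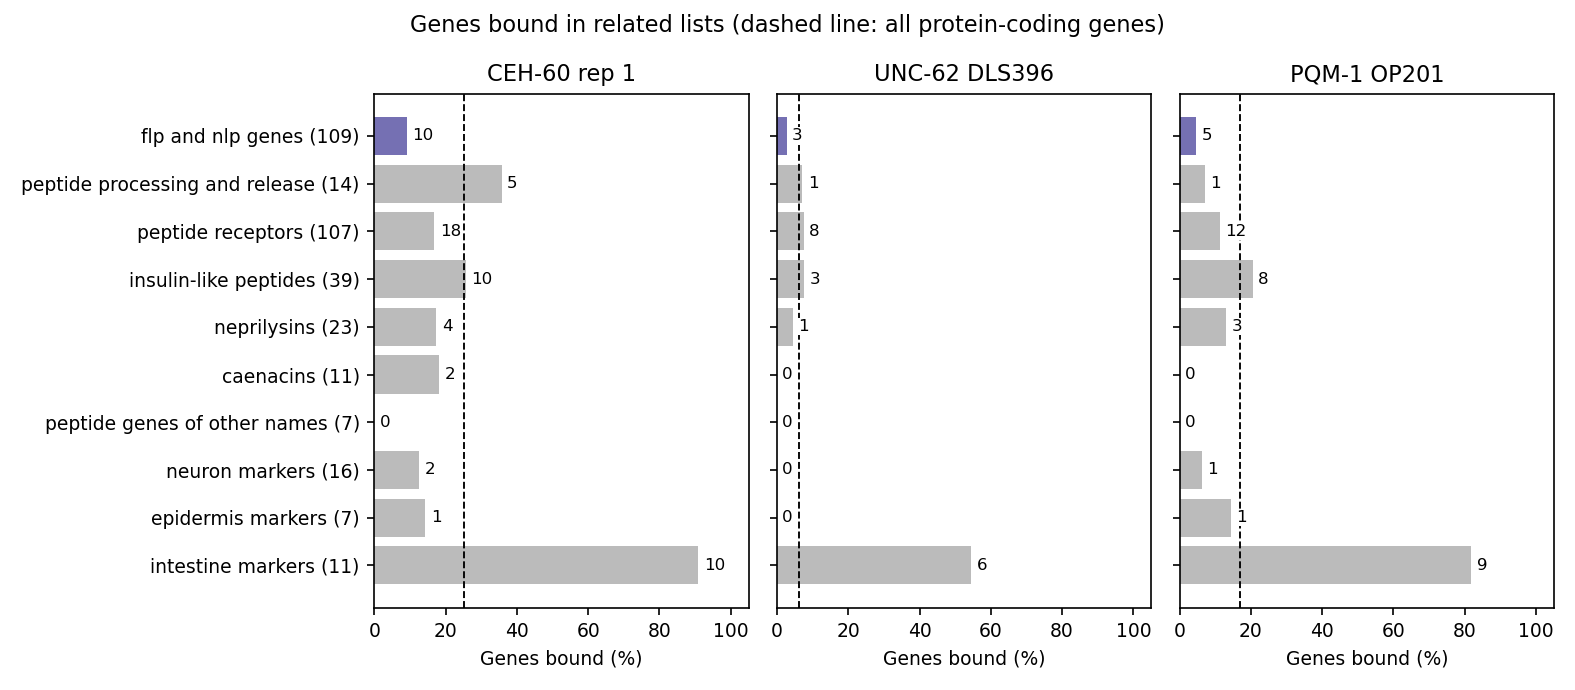
Percent of genes bound at an end in CEH-60 replicate 1, UNC-62 and PQM-1 in OP201, for the flp and nlp genes and for related gene lists (number of genes in brackets, number bound beside each bar); the dashed line is the share of all protein-coding genes. The neuropeptide genes stand left of the line in all 3 panels, and the intestine markers reach 90.9%, 54.5% and 81.8%. For UNC-62 the line lies inside the Wilson interval of the neuropeptide genes.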

How the data were processed

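Peak lists of 8 immunoprecipitated samples were used as deposited, 1 list per sample. The tools named, per the submitters' processing notes and without versions, are MACS2, Bowtie2, deepTools and SAMtools. The genome build, and the control library of each call, were not given in the sources used here. For each peak, the deposited lists give its interval, its summit offset, a whole-number score that follows the −log10 q-value and was not used, the fold over local background as a linear ratio, and −log10 p-values and −log10 q-values. Read depth is unknown, and the intervals cover counting error only.

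Summits (start plus offset) were set against protein-coding genes of the WBcel235 table, which gives no strand, so a planned count at the 5′ end was not run. The frames were checked by shifting genes against summits: the shift with most summits outside genes was at most 20 bp in size in every list. The window rule was tested on simulated data. No coordinate of that table is printed, and peak coordinates are 1-based. Fold percentiles were taken over the nuclear peaks of a list. Wilson 95% intervals used scipy 1.17.1 (Python 3.11.15, numpy 2.4.6, pandas 2.3.3, matplotlib 3.10.9).

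The members, gene lists and pairs were chosen with earlier results of these data known. Named are members bound in 6 or more lists, the 10 of highest fold in 5 lists, those bound in 1 list of a pair alone, and a fixed set with known roles (nlp-40, flp-2, the nlp-29 cluster and others). The members just outside the window, those with summits inside the gene, and the genes of other lists given with folds were chosen after their values were seen. No sequence is shown, since the reference tables used here hold none.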

Additional observations from a re-analysis of the deposited data

How the results depend on the processing

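The members' share of bound genes was below that of all protein-coding genes in 8 of 8 lists as reported. It was also below in 56 of 56 combinations of list and alternative setting, although the counts themselves moved. These combinations reuse the same peaks, so they are not separate measurements. In brackets in this paragraph are the members' share and then that of all genes under the same setting. With 500 bp outside a gene end, the members bound were 3 with mIgG1 (2.75 and 8.87%) and 6 for CEH-60 in DLS396 (5.50 and 18.9%). They were 1 in CEH-60 replicate 2 (0.917 and 6.92%), 1 in DLS435 (0.917 and 3.89%) and 2 for PQM-1 in OP201 (1.83 and 12.5%). With 2000 bp CEH-60 bound 20 in replicate 1, 20 in DLS396, 10 with mIgG1, 5 in replicate 2 and 4 in DLS435, and PQM-1 bound 12 in OP201 and 9 in DLS422. Another setting counted any overlap of the peak with the whole gene and 1000 bp on both sides, which also drops the limit of 200 bp inward. The members bound were then 8 with mIgG1 (7.34 and 18.4%) and 16 for CEH-60 in DLS396 (14.7 and 33.3%). With the 50% of each list of higher fold they were 5 in replicate 1 (4.59 and 13.9%) and 5 in DLS396 (4.59 and 13.7%). They were 1 for UNC-62 (0.917 and 3.11%) and 0 in DLS435 (0 and 3.09%). For PQM-1 they were 3 in OP201 (2.75 and 10.6%) and 2 in DLS422 (1.83 and 8.27%). With 2048 peaks from each list they were 3 in replicate 1 (2.75 and 6.54%) and 1 in DLS396 (0.917 and 6.33%). They were 3 in OP201 (2.75 and 7.53%) and 1 in DLS422 (0.917 and 6.91%). The Wilson interval of 3 in 109 is 0.940 to 7.78%. It holds the share of all genes in replicate 1, replicate 2 (2.75 and 6.37%), UNC-62 (2.75 and 6.18%) and OP201. No difference was detectable in those lists at this length. No interval was computed for the 1 in DLS396 and in DLS422. A further alternative, chosen after seeing the data, gave each summit to its nearest gene alone. The members bound were then 6 in replicate 1 (5.50 and 17.3%), 5 in DLS396 (4.59 and 17.5%) and 2 with mIgG1 (1.83 and 8.52%). They were 1 in replicate 2 (0.917 and 6.60%) and 1 in DLS435 (0.917 and 3.87%). For PQM-1 they were 2 in OP201 (1.83 and 11.8%) and 3 in DLS422 (2.75 and 9.39%). By construction these settings change the window, the number of peaks or the number of genes a summit can count for. The other 25 combinations, among them all 8 with a −log10 q of 5 or more, stayed within 1.5 times the count reported.

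Members bound in both CEH-60 replicates numbered 3 (2.75%, against 9.27% of all genes). Leaving out replicate 1 gave 3 and leaving out replicate 2 gave 10, which are the counts of the replicate that remains. Of 21 recounts of members shared by a pair of lists, 18 stayed within 1.5 times. When peaks had to overlap by 50% of both, replicate 1 and mIgG1 shared 2, CEH-60 and UNC-62 in DLS396 shared 0, and replicate 2 and DLS435 shared 1. The UNC-62 peaks at nlp-1, nlp-57 and nlp-40 were 265, 185 and 185 bp long. They lay wholly inside CEH-60 peaks of 606, 818 and 580 bp, and were too short to cover 50% of them. That 0 therefore does not show separate sites. The cause of the other changes was not tested. No paired analysis was possible because the counts come from no test and each group but 1 holds a single library. Depth is unknown, so a site without a peak in a short list, such as nlp-40 in CEH-60 replicate 2, is not shown to be unbound.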
